A study of Canis lupus familiaris with 10 samples.

Results

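TYROBP, LAIR1, SYK, TREM1 and TREM2 were read in canine cutaneous histiocytoma (CCH) at an early and a late stage, as 5 of the 800 genes of the nCounter Canine IO Panel, a set of hybridization probes against immune genes of the dog. The 5 genes were picked by symbol. TYROBP and LAIR1 were picked because their levels differed clearly between the stages, and in opposite directions, so their stage difference is described here without a test. SYK, TREM1 and TREM2 were added as the kinase and the receptors known to work with TYROBP. All 5 passed the filter on low values, a mean of at least 20 normalized counts over the samples.

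CCH is a benign skin tumour of Langerhans cells, the dendritic cells of the epidermis, and it usually regresses while lymphocytes enter it. The 10 samples were formalin-fixed, paraffin-embedded tumours, 5 early and 5 late, from pet dogs of several breeds. Early CCH were group 1 tumours and late CCH group 3 tumours, rich in lymphocytes, of the histological scheme of Cockerell and Slauson. The early dogs were 0.5 to 5 years old (age not given for 1) and the late dogs 1.5 to 9 years old, and the labels name no treatment or genotype. RNA came from whole tumour sections with adjacent tissue removed, so every value is a mixture of tumour cells, infiltrating leukocytes and stroma. Early and late samples were different tumours, so no tumour was followed over time.

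In the early samples 484696 to 823763 probe counts were recovered from the deposited values, and in the late samples 945399 to 1253083. The share of RNA fragments longer than 200 bases (DV200), a measure of RNA integrity, was 64.5 to 71.2% in early and 71.2 to 75.8% in late samples. The sources used here disagree on the DV200 of late 5, and the value in its label was used throughout, so results with DV200 as a covariate carry that doubt. Each stage had been hybridized on an nCounter cartridge of its own and shared no RNA extraction batch with the other stage, so stage cannot be told apart from cartridge or extraction. The ratio of the strongest to the next positive control probe was 2.09 to 2.17 in early and 2.72 to 2.84 in late samples. The background, set at the mean plus 2 SD of the negative control probes, was 21.8 to 38.2 normalized counts in early and 19.2 to 26.9 in late samples. CD207, which encodes the Langerhans cell protein langerin, was above background in 1 of 5 early and 1 of 5 late samples. The 10 Langerhans and dendritic cell markers tested summed to 2057 to 6406 normalized counts in early and 2444 to 4508 in late samples.

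TYROBP, also called DAP12, is a membrane adaptor without a ligand-binding part of its own. It carries an immunoreceptor tyrosine-based activation motif (ITAM) and pairs with receptors such as TREM1 and TREM2. When such a receptor is engaged, Src family kinases phosphorylate the ITAM, and the kinase SYK docks on it and passes the signal on. LAIR1 is an inhibitory receptor of leukocytes that binds collagens and C1q. It carries inhibitory motifs (ITIMs) that recruit phosphatases and so oppose ITAM signals.

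TYROBP was high in early CCH and lower in late CCH. Early tumours 1 to 5 had 14099, 12284, 11077, 11498 and 12735 normalized counts of TYROBP. Late tumours 1 to 5 had 4461, 4422, 5104, 4631 and 3958. Every early tumour lay well above every late tumour, and the spread within a stage was small, with a coefficient of variation of 9.55% in early and 9.15% in late CCH. The mean was 12339 ± 1179 in the early and 4515 ± 413 in the late tumours (SD, n = 5 each). The log2 fold change of early over late was 1.45 with a standard error of 0.12 in the limma fit, and late CCH held a TYROBP mean 2.73-fold lower. In these bulk samples, fewer cells of a type and less RNA per cell cannot be told apart. Of the 761 genes tested, 5.39% had all early tumours above all late tumours, TYROBP among them (24.6% did not overlap in either direction). TYROBP had the 16th largest change towards early CCH.

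LAIR1 had the opposite pattern. Early tumours 1 to 5 had 94.2, 114, 169, 130.1 and 116 normalized counts of LAIR1. Late tumours 1 to 5 had 735, 584, 515, 364 and 736. The highest early tumour, early 3, stayed below the lowest late tumour, late 4, so the stages did not overlap. The LAIR1 mean was 124 ± 27.9 in the early and 587 ± 157 in the late tumours (SD, n = 5 each), so late CCH was 4.71-fold higher. On the log2 scale the LAIR1 difference of early minus late was -2.21 with a standard error of 0.24. LAIR1 was low in early CCH, at 2.98 to 5.20 times the background of its sample, and stood at 17.3 to 38.4 times background in late CCH. Of all genes tested, 19.2% had every late tumour above every early tumour, and LAIR1 had the 63rd largest change towards late CCH. LAIR1 varied more within a stage than TYROBP, with a coefficient of variation of 22.4% in early and 26.8% in late CCH.

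**Figure D1:**
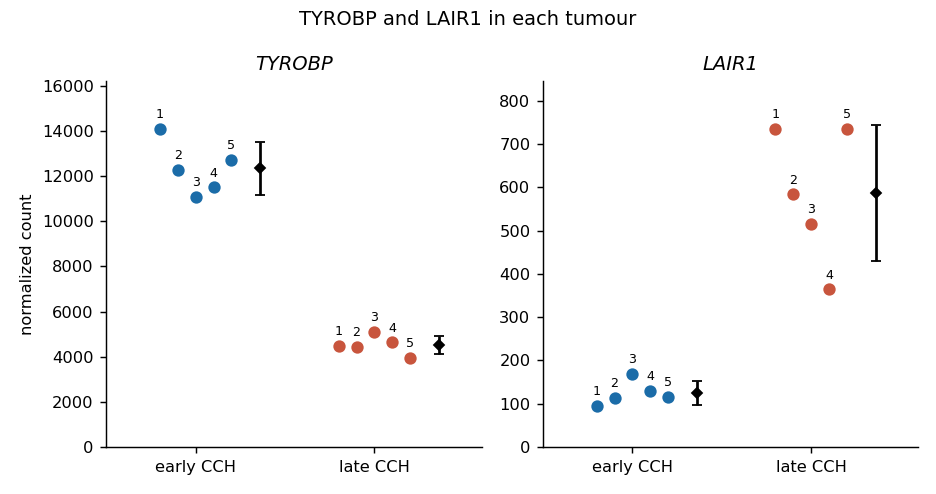
Normalized counts (linear axes from 0) of TYROBP and LAIR1 in each of the 5 early (blue) and 5 late (red) tumours, labelled by replicate number, with the mean and SD of each stage as a black diamond and bar. TYROBP is at 11077 or above in all early and at 5104 or below in all late tumours, and LAIR1 is at 169 or below in all early and at 364 or above in all late tumours.

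The ratio of TYROBP to LAIR1 within a sample does not depend on a scaling that multiplies each sample by 1 factor. It was 150, 108, 65.6, 88.4 and 110.2 in early tumours 1 to 5. In late tumours 1 to 5 the ratio was 6.07, 7.57, 9.91, 12.7 and 5.38. The probes of different genes can differ in efficiency, so only its change between stages is read, and that change was 12.7-fold, or 3.67 on the log2 scale. Both genes were picked for opposite stage differences, so a large change of their ratio follows from that choice and is a description. Quantile normalization, which reshapes each sample, gave 11.3-fold. Early 1 had the highest TYROBP, the lowest LAIR1 and the highest ratio of all tumours. Among early tumours the lowest ratio was that of early 3, and among late tumours the highest was that of late 4.

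The scaling between samples changed the size of both differences but not their direction. The median over all tested genes was a log2 fold change of -0.18 with the deposited housekeeping-gene scaling, so the typical gene read slightly higher in late CCH. Under the other 3 scalings this median moved to 0.09 (TMM), 0.21 (quantile) and 0.21 (geometric mean of the tested genes). Relative to the median of its own scaling, TYROBP was higher in early CCH by 1.62 to 1.64 in the 4 scalings. LAIR1, relative to the same medians, stood at -2.03 with the deposited scaling and between -2.03 and -1.86 with the others.

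Levels of the lymphocyte markers also differed between the stages. All 7 T cell markers (CD3D, CD3E, CD3G, CD2, CD5, CD6 and TRAT1) passed the Benjamini-Hochberg (BH) threshold of 0.05 in limma and were higher in late CCH, where 27.3% of all genes tested were. Their summed level was 398 to 7299 normalized counts in early and 10005 to 14369 in late tumours. Among early tumours the T cell sum was lowest in early 1, which had the lowest LAIR1, and highest in early 3, which had the highest LAIR1. Among late tumours the order differed, and late 4 had the highest T cell sum (14369) and the lowest LAIR1. B cell markers were higher in late CCH for 4 of 5 (summed 142 to 426 against 843 to 4552) and natural killer cell markers for 3 of 4 (161 to 1509 against 1751 to 5238). CD3D, CD3E, CD3G and TRAT1 lost the BH call in some fits that left out a tumour, each without early 5 and without late 4 (adjusted p 0.0521 to 0.0726), and all the T cell sums of late tumours stayed above those of early tumours. With DV200 as a covariate only CD6 of the 7 passed BH (limma adjusted p = 0.0389), and the others were at 0.125 (CD5) to 0.380 (CD3E), with CD2 going from -2.37 to -1.19 on the log2 scale. None of the 4 B cell and 3 natural killer cell markers passed BH under every alternative setting. Of them, CD79A, CD79B and NCR1 did not pass with DV200 as a covariate. The part of these cells in the LAIR1 difference was not tested.

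Markers of myeloid cells, in which TYROBP is known to be expressed, gave mixed directions. Of 8 macrophage markers, 2 were higher in late CCH (CD68 and MSR1), a share of 25% beside 27.3% of all genes tested, and none in early CCH, beside 8.41%. The macrophage sum was 3461 to 7933 in early and 4731 to 8864 in late tumours and overlapped. The Langerhans and dendritic cell markers included 1 gene higher in early CCH (FLT3, a growth factor receptor of dendritic cells) and 2 higher in late CCH (XCR1 and CD83) among 10. Neutrophil marker sums ran from 1395 to 38002 in early and from 1245 to 35913 in late tumours, and 1 of 8 neutrophil markers, LTF, was higher in late CCH. The largest of these sums were mostly S100A8, S100A9 and S100A12. CSF3R, another marker of the list, had 23.3 to 114 normalized counts in early and 31.3 to 91.8 in late tumours. Of 4 mast cell markers, CPA3 and MS4A2 were higher in early CCH, with sums of 279 to 1441 in early and 324 to 646 in late tumours. Under the other 3 scalings 1 macrophage marker passed the threshold in each direction, and the T, B and natural killer cell counts were the same. The Langerhans and dendritic cell list then had 2 genes higher in early CCH, with 1 (geometric mean) or 2 (TMM, quantile) higher in late CCH. Of the neutrophil markers, 1 was also higher in early CCH under the geometric mean scaling. MSR1, XCR1 and CPA3 lost the BH call in 5, 6 and 8 of 10 fits that left out a tumour, among them in each case those without early 1 and without late 1 (adjusted p 0.0617 to 0.0819). The part of these cell types in the TYROBP and LAIR1 differences was not tested.

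SYK, the kinase that docks on phosphorylated ITAMs, did not pass the test. Early tumours 1 to 5 had 1134, 911, 690.3, 873 and 1163 normalized counts of SYK, and late tumours 1 to 5 had 1180, 1202, 1548, 1298 and 1035. The lowest value was early 3 and the highest late 3, but early 1 and early 5 lay above late 5, so the stages overlapped. The SYK mean was 954 ± 196 in the early and 1253 ± 190.2 in the late tumours (SD, n = 5 each), a log2 difference of -0.40 with a standard error of 0.18 and a limma BH adjusted p of 0.103. Under the other 3 scalings the SYK difference lay between -0.13 and -0.01.

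TREM1, a receptor of neutrophils and monocytes that amplifies inflammation through TYROBP, varied widely within each stage. Its normalized counts were 49.7, 166, 40.4, 49.4 and 237 in early tumours 1 to 5. In late tumours 1 to 5 they were 177, 154, 54.0, 78.0 and 168.5. TREM1 was only 1.24 and 1.40 times the background of the sample in early 3 and early 4, and 2.47 times in late 3. Early 2 and early 5 stood with the high late tumours, late 3 was close to the other early tumours, and the stages overlapped fully. The TREM1 mean was 109 ± 88.6 in the early and 126 ± 56.4 in the late tumours (SD, n = 5 each). The TREM1 log2 difference of -0.45 had a standard error of 0.56 and a limma BH adjusted p of 0.555, and under quantile normalization it changed sign.

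TREM2, a lipid-sensing receptor of macrophages and microglia, was low in all tumours. The early tumours had 49.7, 44.1, 64.3, 85.7 and 66.3 normalized counts, only 1.16 to 2.43 times the background of their sample. The late tumours had 128, 73.0, 66.9, 67.8 and 67.0, or 2.71 to 6.24 times background. Late 1 stood apart from the other late tumours, which lay within the range of the early ones. The TREM2 mean was 62.0 ± 16.2 in the early and 80.5 ± 26.5 in the late tumours (SD, n = 5 each), with a log2 difference of -0.36, a standard error of 0.25 and a limma BH adjusted p of 0.295. Its sign turned under 2 of the other 3 scalings. SYK, TREM1 and TREM2 did not pass the BH threshold under any of the alternative settings run.

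FCER1G, the common gamma chain, is the sister adaptor of TYROBP that pairs with Fc receptors and also carries an ITAM. Early tumours 1 to 5 had 5291, 4174, 3661, 4140 and 3962 normalized counts of FCER1G, and late tumours 1 to 5 had 3107, 4097, 3505, 3689 and 3810. Early 1, early 2 and early 4 lay above all late tumours, the last 2 narrowly, and early 3 and early 5 lay among the late ones. The FCER1G mean of 4245 ± 619 in the early and 3642 ± 368 in the late tumours (SD, n = 5 each) gave a log2 difference of 0.22 with a standard error of 0.14 and a limma BH adjusted p of 0.244. FCER1G did pass the BH threshold under all 3 other scalings, at 0.45 to 0.61 on the log2 scale. The ratio of TYROBP to FCER1G within a sample was 2.66 to 3.21 in early and 1.04 to 1.46 in late tumours, a 2.35-fold change without overlap (2.63-fold under quantile normalization). HCST (DAP10), an adaptor that signals without an ITAM, was at the detection limit, with 19.0 to 40.4 normalized counts in early and 32.4 to 40.9 in late tumours. HCST exceeded background in 1 of 5 early and 5 of 5 late tumours.

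**Figure D2:**
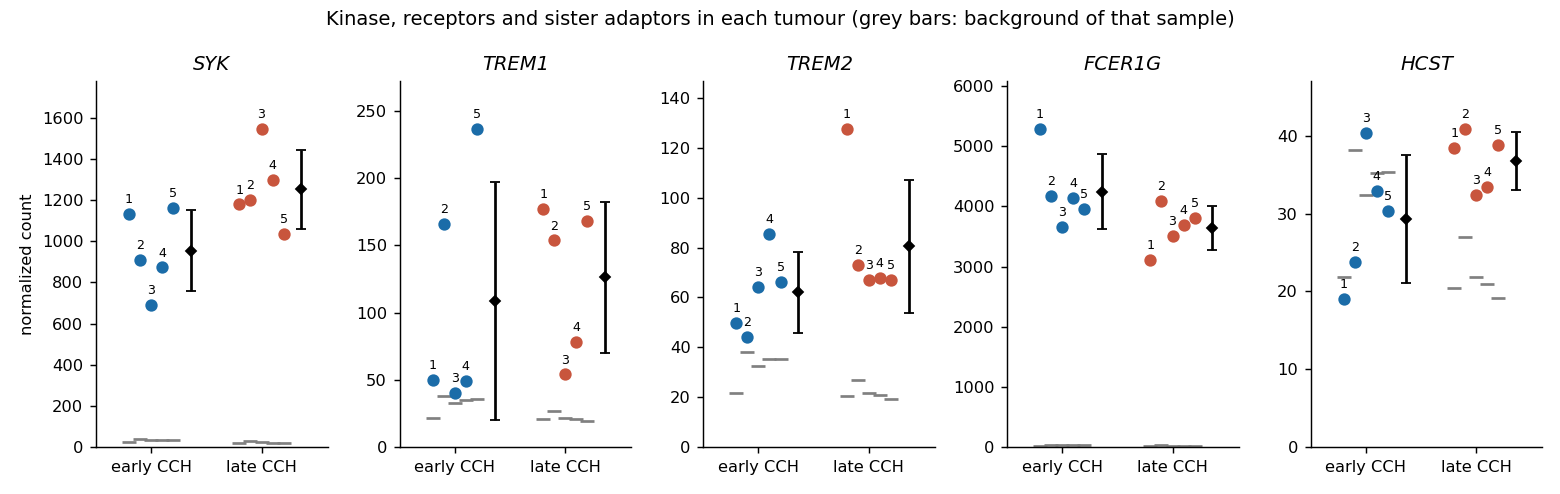
Normalized counts (linear axes from 0, each panel with its own scale) of SYK, TREM1, TREM2, FCER1G and HCST in each early (blue) and late (red) tumour, labelled by replicate number. Black diamonds and bars are means and SD, and grey bars mark the background of each sample. The stages overlap in all 5 panels, and HCST and the early TREM2 values lie close to background.

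Other genes of the pathway were taken from 7 lists ordered by role, and 59 of the listed genes were on the panel. Without TYROBP and LAIR1, 56 of them were tested in limma, and the BH threshold was passed by 7 with more signal in early CCH (12.5%) and by 20 with more in late CCH (35.7%). The same shares of all genes tested were 8.41% and 27.3%. The stricter call asked for a Benjamini-Yekutieli (BY) adjusted p within 0.05 and a change of 2-fold or more, which 11.2% of all genes tested met. By it, 2 pathway genes were higher in early CCH (FCER1A and PIK3CG) against 1.97% of all genes, and 8 higher in late CCH against 9.2%. With DV200 as a covariate, 4 genes higher in early CCH passed BH (CLEC7A, PIK3CG, PIK3R1 and DOK1, the last named after its values were seen), and 2 higher in late CCH (PLCG1 and PIK3CD). The median log2 fold change of the 56 genes was -0.31, beside -0.18 for all genes tested. Under the other 3 scalings 15 or 16 of the 56 genes were higher in early CCH and 17 or 18 in late CCH, while the shares of all genes tested became 21.9 to 25.4% and 18.9 to 21.9%.

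Of the 8 other chains that carry an ITAM, 6 passed the BH threshold as higher in late CCH (75%, beside 27.3% of all genes). As higher in early CCH 1 passed (12.5%, beside 8.41%). The median log2 fold change of the 8 was -2.55. The 6 belong to the antigen receptors of lymphocytes. CD3E, a chain of the T cell receptor complex, was at 1305 ± 1416 normalized counts in the early and 5236 ± 918 in the late tumours (SD, n = 5 each), with a log2 difference of -3.18 and a limma BH adjusted p of 0.0318. CD79A, a chain of the B cell receptor complex, had values of 49.3 to 354 in early and 672 to 2042 in late tumours, a log2 difference of -2.61. CD79B, its partner chain, was below background in all 5 early tumours, so its difference was not measured on both sides, and had 24.8 to 481 normalized counts in late tumours. After raising values to one shared background floor, CD79B did not pass (limma BH adjusted p = 0.158). CD79A and CD247, the zeta chain of the T cell receptor complex, were the 2 that also passed the BY call (limma BY adjusted p = 0.0293 for both). CD247 was named after its values were seen. The 1 ITAM chain higher in early CCH was MS4A2, the beta chain of the IgE receptor of mast cells, at 99.99 ± 34.8 in the early and 51.5 ± 18.7 in the late tumours (SD, n = 5 each), a log2 difference of 0.97. CD79A and CD247 kept the BY call in 3 of 10 fits that left out a tumour. CD3E lost the BH call without early 5, late 1, late 2, late 4 or late 5 (adjusted p up to 0.0726), and MS4A2 without early 1, early 2, late 1, late 3 or late 5 (up to 0.0814). FCER1G passed in neither direction here, and as higher in early CCH under the other 3 scalings.

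Of the activating receptors that pair with TYROBP or FCER1G or carry a related motif, 9 were tested. At the BH threshold 3 were higher in early CCH (33.3%, beside 8.41% of all genes) and 1 in late CCH (11.1%, beside 27.3%). Their median log2 fold change was 0.20. With the other 3 scalings, 4 or 5 were higher in early CCH, with FCAR (an IgA receptor, named after its values were seen) passing in all 3 and NCR3 in 2, while the share of all genes tested higher in early CCH rose as given above. FCER1A, the IgE-binding chain that signals through FCER1G, had 98.4, 141, 272, 557 and 635 normalized counts in early tumours 1 to 5. In late tumours 1 to 5 it had 65.7, 44.2, 37.8, 45.5 and 51.8. All early tumours lay above all late ones, although early 1 and early 2 were far below early 4 and early 5. The log2 difference of FCER1A was 2.44 with a standard error of 0.50 and a limma BY adjusted p of 0.0353. CLEC7A (dectin-1, a receptor for fungal glucans) had 1029 ± 305 in the early and 564 ± 217 in the late tumours (SD, n = 5 each), a log2 difference of 0.89. CLEC5A, a myeloid receptor that pairs with TYROBP, had 46.0 ± 15.7 in the early and 24.5 ± 8.87 in the late tumours (SD, n = 5 each), also a log2 difference of 0.89, and was above background in 3 of 5 late tumours. CLEC5A lost the BH call with a common background floor (0.25, limma adjusted p = 0.279) and with DV200 as a covariate (0.36, adjusted p = 0.591). NCR1, a receptor of natural killer cells, was higher in late CCH, with a log2 difference of early minus late of -1.71 and a limma BY adjusted p of 0.0238, and was above background in 1 of 5 early tumours. With a common background floor NCR1 was at -1.26 and still passed the BY call. FCER1A kept the BY call in 2 and NCR1 in 6 of 10 fits that left out a tumour. CLEC7A lost the BH call without early 3, early 4, late 1, late 2 or late 5 (adjusted p up to 0.0771), and CLEC5A without early 2, early 5, late 1, late 2, late 3 or late 5 (up to 0.0757). TREM1 and TREM2 were among the 5 receptors that passed in neither direction with the deposited scaling, and the smallest changes were those of FCGR1A (0.20) and NCR3 (0.20), an Fc receptor of myeloid cells and a receptor of natural killer cells.

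Of 10 Src, Syk and Tec family kinases tested, 6 were higher in late CCH and 1 in early CCH at the BH threshold, and their median log2 fold change was -1.10. By the other 3 scalings, 4 or 5 were higher in late and 2 in early CCH. The shares of all genes then became 18.9 to 21.9% and 21.9 to 25.4%. SRC then passed in none of the 3 and BTK passed as higher in early CCH in all 3, both named after their values were seen. LCK and TXK, kinases of T cells, were at -2.72 and -2.69 on the log2 scale, and BLK, a kinase of B cells, at -1.43. BLK was above background in 1 of 5 early tumours, and it did not pass BH with the shared background floor (-0.83, limma adjusted p = 0.139) or under TMM (0.0655) and geometric mean (0.0778) scaling. TXK and FYN passed the BY call (limma BY adjusted p = 0.0293 and 0.0238). FYN, named after its values were seen, had 246 to 432 normalized counts in early and 619 to 1066 in late tumours, and fell short of 2-fold under the geometric mean (-0.92) and quantile (-0.83) scalings. LYN, a Src family kinase of myeloid and B cells, was the 1 kinase higher in early CCH with the deposited scaling. Early tumours 1 to 5 had 3074, 2778, 2645, 2665 and 2696 normalized counts of LYN, and late tumours 1 to 5 had 2154, 2152, 2532, 2161 and 2186. All early tumours were higher, late 3 came closest to them, and the log2 difference was 0.31 with a limma BH adjusted p of 0.050. That p sits at the threshold, and of 10 fits that left out a tumour LYN passed only in the one without late 3 (adjusted p up to 0.101 in the others). TXK kept the BY call in 4 and FYN in 5 of these fits, and BLK the BH call only without early 4, late 1 or late 5 (up to 0.0966 in the others). ZAP70, the T cell relative of SYK, was too low to be tested.

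**Figure D3:**
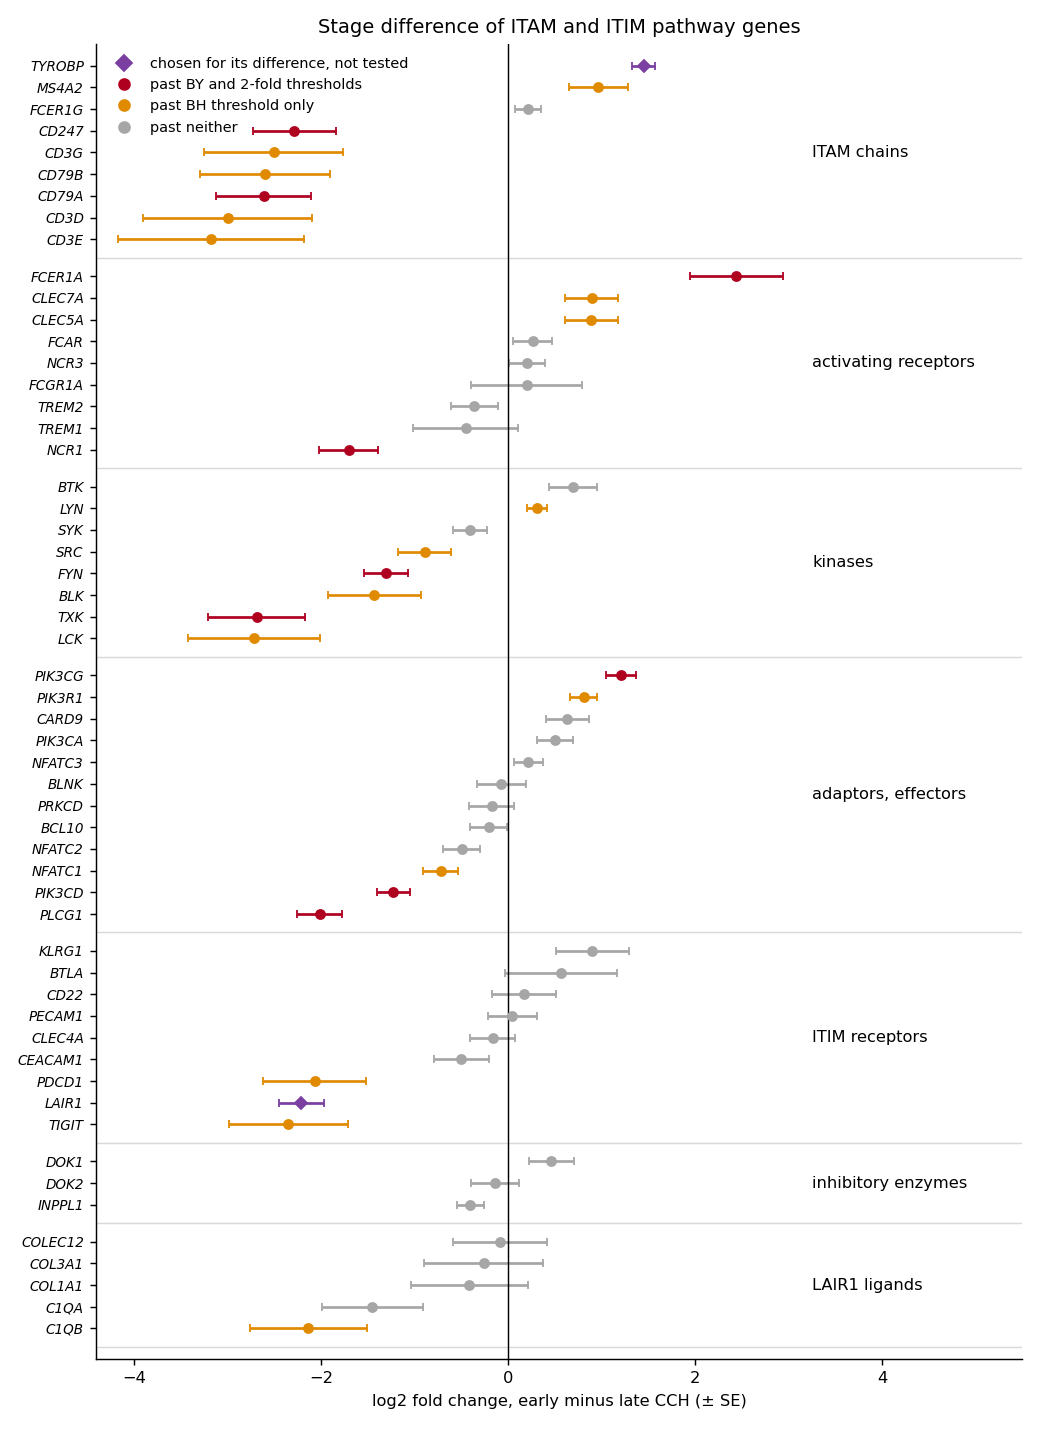
Log2 fold change of early minus late CCH (x axis, points) with its standard error (bars) for the tested genes of the 7 pathway lists, without 3 that are not reported here. TYROBP and LAIR1 (purple) were chosen for their difference and not tested, red genes passed the BY and 2-fold call, orange genes the BH threshold alone, and grey genes neither. The antigen receptor chains and the kinases LCK and TXK lie left of 0, and FCER1A and PIK3CG are the 2 red genes to the right of it.

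Below the kinases, 13 adaptors and effectors were tested, of which 2 passed the BH threshold as higher in early (15.4%, beside 8.41% of all genes) and 4 as higher in late CCH (30.8%, beside 27.3%). Under each of the other 3 scalings the counts were 5 and 3, while the shares of all genes changed as given above. The median log2 fold change was -0.17. PLCG1, a phospholipase C that T cell receptors use, had 132, 179.8, 308, 275 and 167 normalized counts in early tumours 1 to 5 and 960.0, 825, 687, 916 and 744 in late tumours 1 to 5. The highest early tumour was early 3, below the lowest late tumour, late 3. The log2 difference of PLCG1 was -2.02 with a standard error of 0.25 and a limma BY adjusted p of 0.0054. The gamma and delta catalytic subunits of class I phosphoinositide 3-kinase differed in opposite directions. PIK3CG, the gamma isoform of leukocytes, had 2155, 2022, 1792, 1743 and 2655 normalized counts in early tumours 1 to 5 and 991, 880.3, 1010.3, 714 and 880.3 in late tumours 1 to 5. PIK3CD, the delta isoform of leukocytes, ran the other way, from 503 to 680.2 in early and from 1066 to 1738 in late tumours. The log2 differences were 1.20 for PIK3CG and -1.23 for PIK3CD (limma BY adjusted p = 0.0084 and 0.0102), and PLCG1, PIK3CG and PIK3CD passed the BY call in 10 of 10 fits that left out a tumour. Under the other 3 scalings PIK3CD was at -0.96 to -0.83, short of 2-fold. PIK3R1, a regulatory subunit, was higher in early CCH by 0.81. NFATC1, a calcium-regulated transcription factor, was at -0.72, and it was not past the BH threshold in the other 3 scalings. BLNK, the B cell linker adaptor, had the smallest difference at -0.07.

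LAIR1 was set beside 8 other inhibitory receptors with an ITIM. At the BH threshold 2 of them were higher in late CCH and none in early CCH, and their median log2 fold change was -0.06. The late share of 25% was close to the 27.3% of all genes tested. KLRG1, an inhibitory receptor of lymphocytes named after its values were seen, passed as higher in early CCH under the other 3 scalings. The 2 were TIGIT and PDCD1, inhibitory receptors of T and natural killer cells. TIGIT had 20.1, 120.4, 305, 232 and 75.8 normalized counts in early tumours 1 to 5 and 879, 480.0, 399, 487 and 588 in late tumours 1 to 5. TIGIT was below background in early 1 and highest among early tumours in early 3, and its stages did not overlap. PDCD1 had 22.2 to 255 in early and 228 to 504 in late tumours, which overlapped. The log2 differences were -2.35 for TIGIT and -2.07 for PDCD1 (limma BH adjusted p = 0.0170 and 0.0160). PECAM1, an adhesion receptor of endothelium and leukocytes, had the smallest change at 0.05, and CLEC4A, a receptor of dendritic cells, was at -0.16. Of the phosphatases and adaptors that act on inhibitory signals, 3 were on the panel (INPPL1, DOK1 and DOK2), and none of the 3 passed BH in limma with the deposited scaling. DOK1 passed as higher in early CCH under the other 3 scalings (0.73 to 1.00) and with DV200 as a covariate (1.10).

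Of the ligands of LAIR1, 5 were on the panel, and 1 passed the BH threshold, being higher in late CCH. That share of 20% was below the 27.3% of all genes tested. C1QB, a chain of complement C1q, had 276, 2746, 1606, 295 and 1324 normalized counts in early tumours 1 to 5 and 5997, 2577, 3136, 4317 and 3771 in late tumours 1 to 5. Early 2 reached the level of the late tumours, and early 1 and early 4 were the lowest. The log2 difference of C1QB was -2.14 with a limma BH adjusted p of 0.0239. It lost this call without late 1 (0.0574) and without late 4 (0.0521). C1QA, its partner chain, was named after its values were seen. Its mean was 498 ± 369 in the early and 1040 ± 219 in the late tumours (SD, n = 5 each), a log2 difference of -1.45 with a limma BH adjusted p of 0.0579. The fibrillar collagen genes COL1A1 and COL3A1 did not pass, at -0.41 and -0.26, and both spanned a wide range within a stage. COL3A1 ran from 2027 to 22664 normalized counts in early and from 4788 to 16717 in late tumours. COLEC12, a scavenger receptor with a collagen-like stalk, was at -0.08.

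The genes whose profiles over the 10 tumours lay nearest to TYROBP were found by the root mean square distance between log2 values, each gene centred on its own mean. DUSP6, a phosphatase of ERK kinases, was nearest at 0.15, followed by IL13RA1 (0.20), PIK3CG (0.22), IFNGR1 (0.28) and RPS6 (0.32), while the median distance of all genes was 0.95. IL13RA1 and IFNGR1 are receptor subunits for interleukin 13 and interferon gamma, and RPS6 is a ribosomal protein. DUSP6 was at 8126 ± 938 in the early and 3200.0 ± 288 in the late tumours (SD, n = 5 each). IL13RA1 was at 1951 ± 291 in the early and 852 ± 84.5 in the late tumours (SD, n = 5 each). These profiles share the libraries, their depth and the stage difference, and the order is a description of likeness.

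The genes nearest to LAIR1 were PLCG1 (0.36), SMAD3 (0.41), IRF1 (0.42), DLA-64 (0.44) and LAG3 (0.46), with a median distance of all genes of 1.17. SMAD3 is a transducer of TGF-beta signals, IRF1 an interferon-induced transcription factor, DLA-64 a class I major histocompatibility gene of the dog and LAG3 an inhibitory receptor of lymphocytes. SMAD3 was at 60.5 ± 16.1 in the early and 206 ± 47.6 in the late tumours (SD, n = 5 each). IRF1 was at 1038 ± 413 in the early and 3179 ± 485 in the late tumours (SD, n = 5 each). LAIR1 was farther from its nearest gene than TYROBP was from its own.

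**Figure D4:**
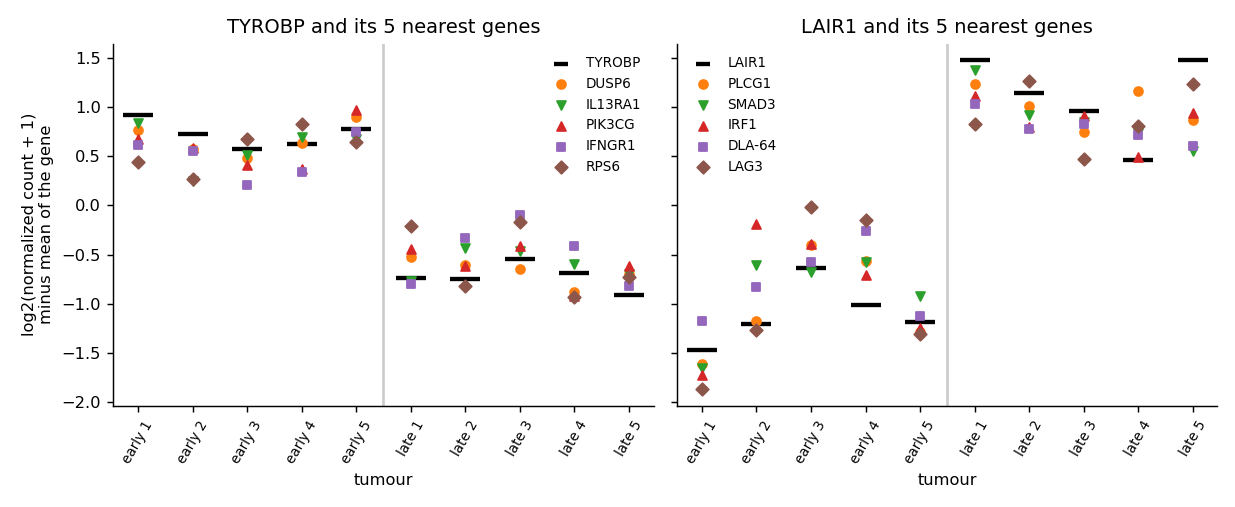
Log2(normalized count + 1) minus the mean of each gene (y axis) in each of the 10 tumours (x axis) for TYROBP (left, black bars) and LAIR1 (right, black bars) with their 5 nearest genes (coloured markers). The genes on the left are above their mean in every early tumour and below it in every late tumour, and those on the right show the reverse.

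The stage differences of the 5 genes and FCER1G differed in how far they moved with the processing. TYROBP stayed between 1.40 and 1.50 when any single tumour was left out, and LAIR1 between -2.37 and -2.12. SYK stayed between -0.48 and -0.29 and TREM2 between -0.48 and -0.18. TREM1 ranged from -0.83 to -0.20 and reached -1.84 with DV200 as a covariate, where its limma BH adjusted p was 0.131. TYROBP was at 1.46 and LAIR1 at -2.03 with DV200 as a covariate.

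**Figure D5:**
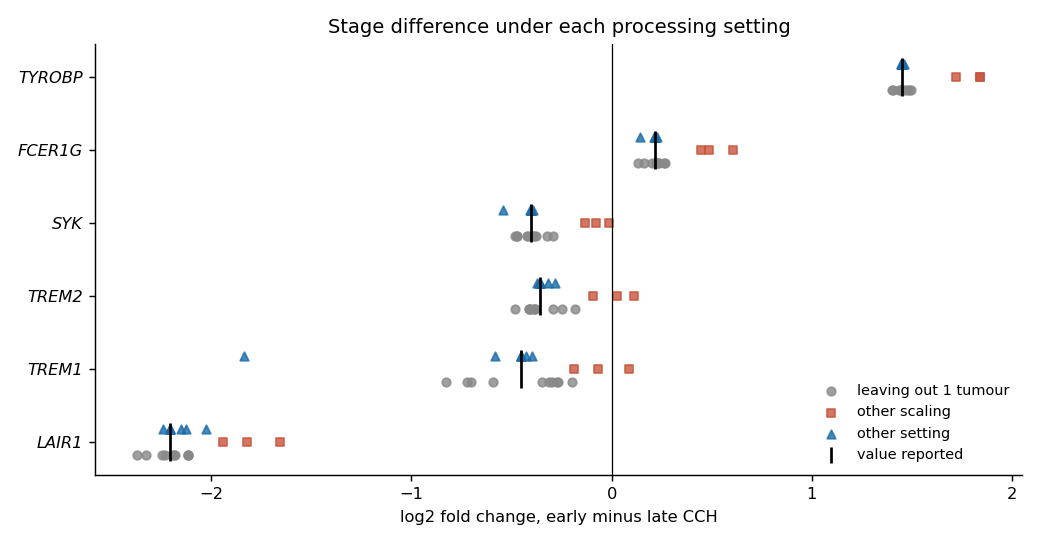
Log2 fold change of early minus late CCH (x axis) for 6 genes under each processing setting: the value reported (black bar), fits that leave out 1 tumour (grey circles), other scalings (red squares) and other settings (blue triangles). TYROBP stays to the right of 0 and LAIR1 to the left under all of them, while TREM1 and TREM2 reach both sides.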

How the data were processed

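RNA from 10 CCH (5 early, 5 late, groups from the sample titles) was measured with the nCounter Canine IO Panel. The deposited signal values are probe counts that the authors normalized in nSolver 4.0 to 6 positive control probes and to housekeeping genes; 8 negative control probes set the background. Whole counts were recovered for at least 98.5% of genes per sample (tolerance 0.0051) and used only for depth. Precision is limited by 5 tumours per stage. Values were analysed as log2(normalized count + 1) with limma 3.58.1 in R 4.3.3 (eBayes with an intensity trend) for 761 of 800 genes with a mean of at least 20, early against late, two-sided. A call needed a BY adjusted p of at most 0.05 and a 2-fold change; BH at 0.05 gave a further count. On simulated data (761 genes, 200 changed), 19% of 2-fold and 75% of 4-fold changes were called.

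The members and lists were chosen with earlier results of these data known. Named genes were the members, FCER1G, HCST, per list up to 4 genes past BH in each direction and 2 with the smallest change, and the 5 nearest profiles. Alternatives covered pseudocount, filter, scaling, variance trend, sample weights, DV200, replicate number, extraction batch and each tumour left out; a common background floor was added after seeing the data. Of the listed pathway genes, 3 are counted in their lists but not reported here by name.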

Additional observations from a re-analysis of the deposited data

Results flagged for a closer look

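In 12 of 160 sets of 5 samples checked (7.5%), the highest or lowest sample stood far from the other 4, and chance alone gives about 5%. Among the 5 genes this concerned TREM2 alone, with 128 normalized counts in late 1 and 66.9 to 73.0 elsewhere in late CCH. Late 3 was the highest late tumour for 5 genes. They were CD79B (481 against 24.8 to 123), LYN (2532 against 2152 to 2186), BTK, a B and myeloid cell kinase (1228 against 468 to 667), CARD9, an adaptor of myeloid cells (338 against 144 to 199), and BTLA, an inhibitory receptor of lymphocytes (520 against 50.8 to 139). The summed B cell markers were also highest in late 3, with 4552, while the remaining late tumours had 843 to 1981. Late 2 was the highest late tumour for FCGR1A (279 against 115 to 154), KLRG1 (676 against 263 to 353) and the summed neutrophil markers (35913 against 1245 to 5517), mostly S100A8, S100A9 and S100A12. Late 1 was highest for C1QA (1415 against 866 to 1024). Early 2 was the lowest early tumour for PIK3R1 (1462 against 1817 to 1870.2) and the highest for INPPL1 (1598 against 1190.2 to 1283).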

How the results depend on the processing

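Scaling moved TYROBP, LAIR1, SYK and TREM2 most, and DV200 as a covariate moved TREM1 most (-1.84). TYROBP was at 1.72 (TMM), 1.84 (quantile) and 1.84 (geometric mean), and LAIR1 at -1.66 (quantile) and -1.82 (geometric mean). TREM1 turned to 0.087 (quantile), and TREM2 to 0.11 (quantile) and 0.025 (geometric mean), far from any threshold. The 85 panel genes called split into 15 higher in early and 70 in late CCH. The split became 42 and 34 (geometric mean), 31 and 41 (TMM) and 47 and 34 (quantile). With BH in place of BY 188 were called. With DV200 as a covariate limma called 0, with 45 past BH and 197 at an unadjusted p under 0.05, and DV200 differed between the stages. The 7 pathway genes higher in early CCH became 4 with DV200, 16 (TMM), 15 (quantile) and 16 (geometric mean). The 20 higher in late CCH became 2 with DV200. Leaving out a tumour gave 39 to 98 panel calls (47 without early 5, 39 without late 1, 48 without late 2, 41 without late 4, 52 without late 5), 3 to 7 pathway genes higher in early CCH (4 without late 1, 3 without late 5) and 14 to 22 higher in late CCH. The replicate numbers did not pair the samples: deviations of same-numbered samples correlated between -0.20 and 0.16, and 1 of 5 early samples was nearest to its own number. With the replicate number as a block 1 panel gene passed BY and 2-fold and 228 passed BH, and the pathway counts were 5 and 18. The extraction batch as a random block gave 10 and 23, with a correlation within batches of -0.14. No batch held both stages, so that fit cannot separate batch from stage. The cause of these changes was not tested. Genes of low level, among them HCST, TREM2, the low TREM1 values and early LAIR1, are limited by signal.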
